A study of Mus musculus with 8 samples.

Results

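The genes described here are 5 STAT transcription factors (Stat2, Stat3, Stat5a, Stat5b and Stat6) and 4 suppressors of cytokine signaling (Socs1, Socs2, Socs3 and Cish), 9 of the 19084 genes named on a mouse expression array. Each was found by matching its symbol to the probe annotation, and each has 1 probe. RAW264.7 cells, a mouse macrophage-like cell line, carried a stable lentiviral short hairpin RNA against luciferase (shLuc, the control line) or against Dab2, the endocytic adaptor disabled-2 (shDab2). Both lines received PBS as the vehicle or lipopolysaccharide (LPS) for 6 h, and total RNA was hybridised to 2 single-colour arrays in each of the 4 groups, shLuc PBS, shLuc LPS, shDab2 PBS and shDab2 LPS. On the arrays the knockdown is represented by a single hairpin line, so the hairpin and its line cannot be told apart there. Neither the labels nor the methods say that the 2 arrays of a group came from separate cultures, and the p-values then measure only the spread between these arrays, which may be technical.

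STAT proteins are latent transcription factors. A cytokine bound to its receptor activates receptor-associated Janus kinases (JAKs), which phosphorylate STATs, and the paired STATs move to the nucleus and bind DNA. STAT2 acts with IRF9 in the complex formed after type I interferon, STAT3 is activated by IL-6 and IL-10, STAT5A and STAT5B by GM-CSF and related cytokines, and STAT6 by IL-4 and IL-13. Many SOCS genes are themselves STAT targets, and their proteins bind receptors or JAKs and shut the signal down, which closes a negative feedback loop. LPS reaches this pathway mainly through cytokines that macrophages secrete after Toll-like receptor 4 is engaged.

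DNA around transcript starts of the 4 genes whose response to LPS differed between the lines is shown first, because it can be set beside the expression values. The stretches were taken from the RefSeq promoter sequences of GRCm38.p6, on the strand of the gene, with matches to 2 kinds of motif in capitals. The motifs, searched on both strands, were the gamma-activated sequence TTCNNNGAA, its longer form with 4 bases in place of 3 between TTC and GAA, and a core of the interferon-stimulated response element, GAAA repeated after 2 bases of any kind (on the other strand, TTTC repeated).
Stat2 (chr10:128270248-128270342, plus strand): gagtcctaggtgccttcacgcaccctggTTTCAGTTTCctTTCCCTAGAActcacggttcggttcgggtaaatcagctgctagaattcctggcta
Socs1 (chr16:10785559-10785664, minus strand): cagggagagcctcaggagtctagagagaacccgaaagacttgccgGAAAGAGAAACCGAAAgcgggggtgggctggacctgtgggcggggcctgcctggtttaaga
Socs3 (chr11:117969502-117969530, minus strand): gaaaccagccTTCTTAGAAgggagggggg
Cish (chr9:107296614-107296678, plus strand): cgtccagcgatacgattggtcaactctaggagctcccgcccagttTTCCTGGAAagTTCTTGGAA

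In the Stat2 stretch the response element lies from base -222 to -213, counted from the start of the RefSeq transcript on which the window was placed, and the longer gamma-activated form follows from -210 to -201. The Socs1 stretch holds 2 overlapping response elements, from -83 to -74 and from -77 to -68. Socs3 has 1 gamma-activated sequence, from -154 to -146 of a transcript that starts at 117969366, which is 970 bases inside the span annotated for the gene (outer start 117970336), so the site lies within that span. For Stat2, Socs1 and Cish the start of the transcript is the outer start of the gene, and Cish has 2 gamma-activated sequences there, from base 1 to 9 and from 12 to 20. Of all 32841 RefSeq promoter windows of the same length (250 bases before to 50 after a start), 8.3% held TTCNNNGAA, 0.457% held it at least 2 times, 6.95% held the longer form and 3.44% held the response element core. The windows of Stat3, Stat5a, Stat5b and Stat6 held none of these letters, though these windows too were placed 31 to 36434 bases inside the spans of their genes, and Socs2 had no window in the table. A match is a description of the letters, and binding of a STAT to these sites was not measured.

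**Figure D1:**
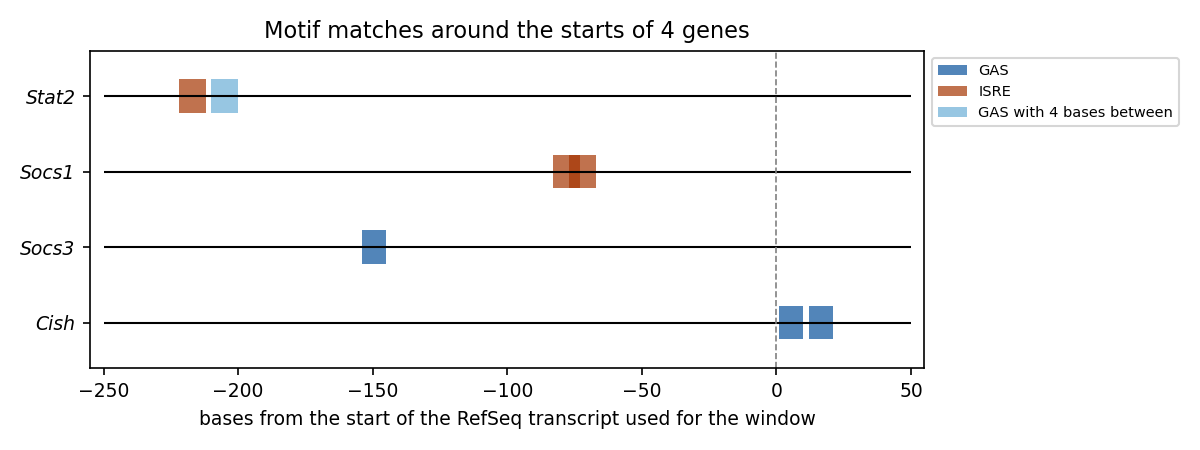
Positions of the motif matches in the promoter windows of Stat2, Socs1, Socs3 and Cish; the x axis gives the distance in bases from the start of the RefSeq transcript used, which for Socs3 lies 970 bases inside the span of the gene, and boxes mark matches to TTCNNNGAA (GAS), its longer form (GAS with 4 bases between) and the interferon-stimulated response element core (ISRE). The matches of Stat2, Socs1 and Socs3 lie before that start and both of Cish lie just after it.

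All values are background-subtracted probe intensities after quantile normalization between the 8 arrays. An intensity of 50 served as the level below which a probe was treated as dim: a ratio against a group with both arrays below it was given only as a bound. Tests were made with limma on log2(intensity + 50), and a gene was called at an adjusted p under 0.05 (Benjamini-Hochberg over 26423 probes). Ratios are those of the group means of intensity, while log2 fold changes carry the added 50 and so understate the change of dim probes. The deposited arrays had medians of 20 to 37, and the 2 arrays of a group correlated at r = 0.99486 to 0.99625. The study reported reduced Dab2 protein in shDab2 cells by Western blot. On these arrays the knockdown could be checked only weakly, at the level of RNA and with a dim probe. The Dab2 probe read 91.1 and 88.1 in shLuc PBS and 52.2 and 72.4 in shLuc LPS. It read 59.1 and 76 in shDab2 PBS, and 39.1 and 34.8 in shDab2 LPS. Dab2 was lower in shDab2 cells without overlap in both treatments, but neither difference passed (adjusted p = 0.26 with PBS and 0.058 with LPS). Of 7 macrophage markers measured, 6 reached 50 (Cd68 read at least 13990 on every array and Csf1r at least 6327) and Mertk stayed at 21.1 and below. Under LPS Cd68 and Csf1r were lower in shDab2 than in shLuc cells (-0.40 and -0.64 on the log2 scale), and Adgre1, which encodes F4/80, was higher in shDab2 cells with PBS (1.46) and with LPS (2.08). Fcgr1 (0.49) and the dim Mertk (0.31) were also called higher in shDab2 cells with LPS. Itgam was called lower with PBS (-0.44). Not all of the 14 alternatives kept the calls of Fcgr1, Mertk and Itgam. All 7 fibroblast and 6 granulocyte markers measured read under 50 on every array. Of 9 lymphocyte markers 7 did so as well, all but Cd3e and Cd79a. Cd79a was called higher with LPS in shDab2 cells (0.54), a call that not all alternatives kept. Of 6 dendritic cell markers, 4 (Flt3, Xcr1, Ccr7 and Siglech) also stayed under 50 on every array. Zbtb46 read between 48.4 and 74.1, with -0.00924 between the lines under LPS. Itgax, an integrin of dendritic cells and macrophages, was 2.16 higher on the log2 scale in shDab2 than in shLuc cells under LPS (adjusted p = 7.3e-08). The summed level of the 6 dendritic cell markers was 213 to 250.1 in shLuc LPS and 968 to 991 in shDab2 LPS, and without Itgax it was 57.8 to 75.6 and 65.8 to 72.2. The part of these markers in the results below was not tested.

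**Figure D2:**
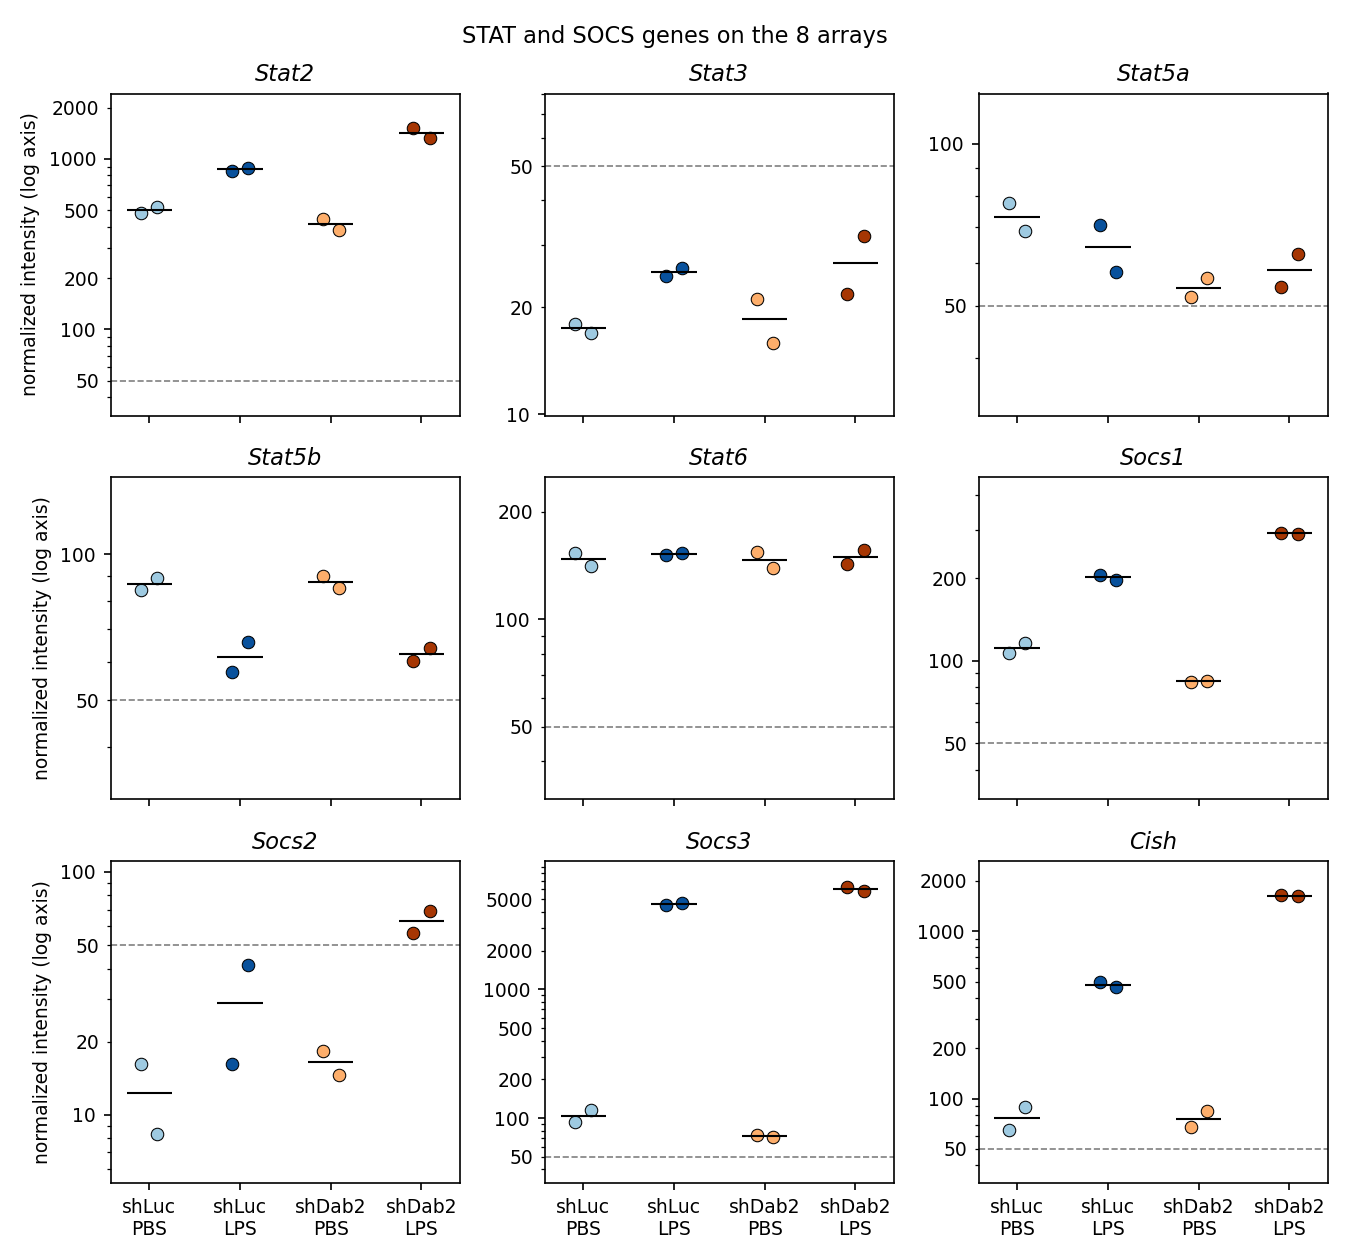
Normalized intensity of the 9 genes on the 8 arrays, on a log axis that differs between panels; points are single arrays, bars are means of the 2 arrays of a group, and the dashed line is 50. Socs3, Cish, Stat2 and Socs1 are highest in shDab2 cells with LPS, while Stat3 lies under 50 in every group.

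Socs3, Cish, Socs1 and Stat2 rose with LPS in both lines and Stat5b fell in both. In shLuc cells 5 of the 9 genes were called (4 higher and 1 lower), where 27.2% of all 19084 genes were called (11.6% higher and 15.7% lower). In shDab2 cells 6 of the 9 were called (5 higher and 1 lower), beside 31.5% of all genes (13.4% higher and 18.0% lower). Of the 9505 genes with a mean intensity of at least 50, which include 7 of the 9 (all but Stat3 and Socs2), 4752 were called in shLuc cells (2041 higher) and 5509 in shDab2 cells (2337 higher). The median log2 fold change of the 9 genes was 0.33 in shLuc and 0.76 in shDab2 cells, beside -0.00394 and -0.00176 over all genes. The 9 genes were chosen with earlier results of these data known. Their counts and medians, here and below, therefore describe them and do not test an excess over all genes. The arrays measure bulk RNA, in which fewer cells of a type and less RNA per cell cannot be told apart.

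Socs3 (chromosome 11, 117966079-117970336), whose protein blocks signaling from the IL-6 receptor chain gp130 and inhibits JAKs, had the strongest response of the 9. In shLuc cells its intensity was 93.4 and 115 with PBS and 4555 and 4698 with LPS. In shDab2 cells it was 74.1 and 71.6 with PBS and 6209 and 5793 with LPS. The groups were far apart in both lines, at 44.5-fold in shLuc cells (log2 fold change 4.93, SE 0.0728, limma adjusted p = 5.2e-12) and 82.3-fold in shDab2 cells (5.62, SE 0.0728, adjusted p = 1.4e-12). Of all genes 7 rose more in shLuc cells and 6 rose more in shDab2 cells.

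Cish (chromosome 9, 107296659-107302784), the founding member of the family and an inhibitor of STAT5 signaling, read 65 and 89.1 with PBS and 497 and 462 with LPS in shLuc cells. In shDab2 cells it read 67.6 and 83.8 with PBS and 1637 and 1618 with LPS. With PBS the lines overlapped, and with LPS both shDab2 arrays lay above both shLuc arrays. LPS raised Cish 6.23-fold in shLuc cells (log2 fold change 2.07, SE 0.0981, adjusted p = 5.6e-08), where 87 genes rose more. It raised Cish 21.5-fold in shDab2 cells (3.74, SE 0.0981, adjusted p = 2.2e-10), where 40 genes rose more.

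Socs1 (chromosome 16, 10783808-10785536), an inhibitor of JAKs downstream of interferons, read 106 and 116 with PBS and 205 and 197 with LPS in shLuc cells, and 83.8 and 84.3 with PBS and 291 and 290.25 with LPS in shDab2 cells. No 2 groups overlapped. The rise was 1.82-fold in shLuc cells (log2 fold change 0.64, SE 0.077, adjusted p = 8.3e-05) and 3.46-fold in shDab2 cells (1.35, SE 0.077, adjusted p = 1.3e-07).

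Socs2 (chromosome 10, 95383903-95417321), a regulator of growth hormone receptor signaling, was dim and read under 50 on 6 of the 8 arrays. Its values were 16.1 and 8.38 in shLuc PBS, 16.2 and 41.4 in shLuc LPS, 18.2 and 14.6 in shDab2 PBS, and 56 and 69.2 in shDab2 LPS. Both shDab2 LPS arrays lay above all others. The rise with LPS passed in shDab2 cells, where it was at least 1.25-fold (log2 fold change 0.76, SE 0.145, adjusted p = 0.0018), and did not in shLuc cells (0.32, adjusted p = 0.15). The 2 shLuc LPS arrays were far apart, and that rise was 0.56 without replicate 1 (adjusted p = 0.014) and 0.0954 without replicate 2 (adjusted p = 0.72). Here and wherever 1 array of a group was left out, the remaining array was assumed to vary like those of the other groups.

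Among the STAT genes, Stat2 (chromosome 10, 128270498-128292853) was the 1 that rose. It read 484 and 523 with PBS and 848 and 888 with LPS in shLuc cells. In shDab2 cells it read 447 and 384 with PBS and 1511 and 1329.5 with LPS. The 4 groups did not overlap, and the mean ± SD (n = 2) was 503 ± 27.4 and 868 ± 28.8 in shLuc cells against 415 ± 44.2 and 1420 ± 128 in shDab2 cells. LPS raised Stat2 1.72-fold in shLuc cells (log2 fold change 0.73, SE 0.0827, adjusted p = 5.4e-05) and 3.42-fold in shDab2 cells (1.66, SE 0.0827, adjusted p = 4.2e-08).

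Stat5b (chromosome 11, 100780731-100859004) fell in both lines by a similar and small amount. It read 84.4 and 89.1 with PBS and 57.1 and 65.8 with LPS in shLuc cells, and 89.9 and 85.1 with PBS and 60.2 and 64.1 with LPS in shDab2 cells. PBS lay 1.41-fold above LPS in both lines, without overlap. The log2 fold change was -0.30 in shLuc cells (SE 0.0946, adjusted p = 0.044) and -0.29 in shDab2 cells (SE 0.0946, adjusted p = 0.04). These calls are at the limit of what 2 arrays can carry. They were lost when scaling to the 75th percentile took the place of quantile normalization (adjusted p = 0.13 and 0.11), and without 1 of either PBS group's arrays or of the line's own LPS arrays, with adjusted p-values of 0.06 to 0.2 in both lines.

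The other 3 STAT genes were not called with LPS in either line. Stat5a (chromosome 11, 100859351-100885169), the neighbour of Stat5b, read between 51.9 and 77.5 on the 8 arrays, with log2 fold changes of -0.11 in shLuc cells (95% confidence interval -0.34 to 0.12) and 0.06 in shDab2 cells (-0.17 to 0.29). Stat6 (chromosome 10, 127642955-127660987) read between 139 and 156 and had the flattest profile of the 9, with log2 fold changes of 0.04 (-0.15 to 0.23) and 0.02 (-0.17 to 0.21). Stat3 (chromosome 11, 100886806-100939594) read between 15.9 and 31.8, so that its probe gave no level above 50 on any array and no ratio could be given. Its LPS arrays lay above its PBS arrays in both lines, at log2 fold changes of 0.16 (adjusted p = 0.32 and 0.29), and a change of this gene was not measurable with this probe.

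**Figure D3:**
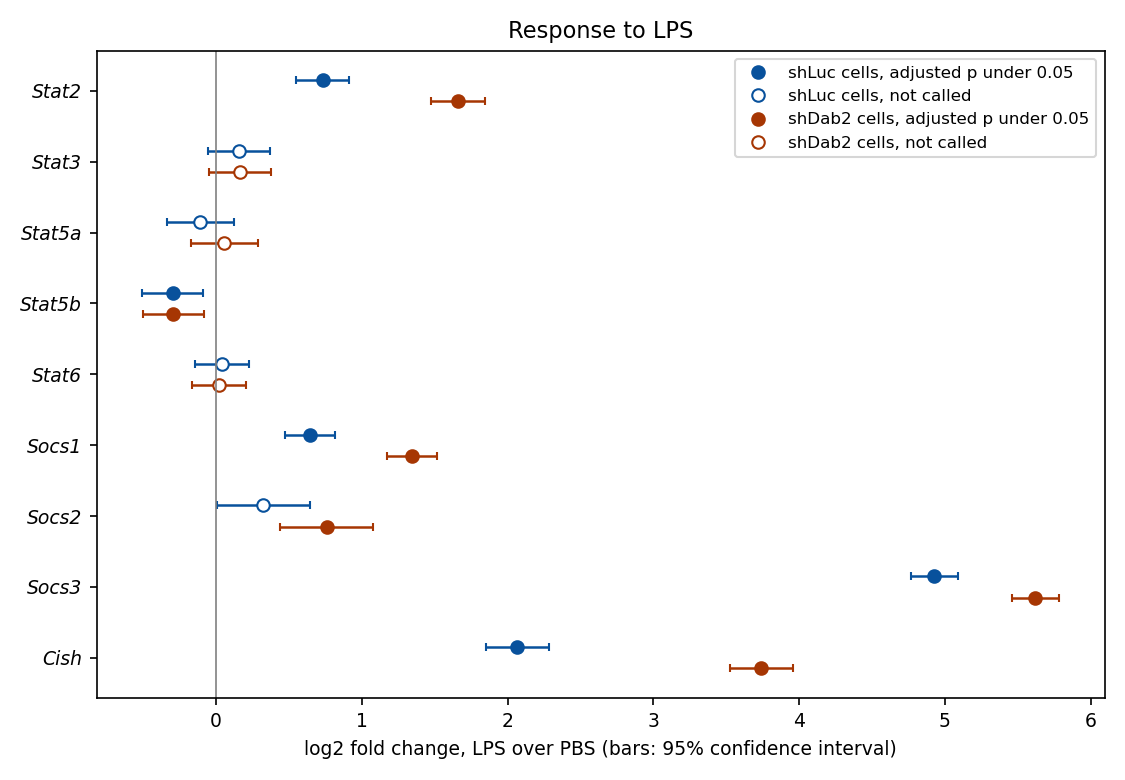
Log2 fold change of LPS over PBS, on the log2(intensity + 50) scale, for the 9 genes in shLuc and in shDab2 cells; points are limma estimates from 2 arrays a group, bars are 95% confidence intervals, and filled points had an adjusted p under 0.05. The intervals of the 2 lines are apart for Stat2, Socs1, Socs3 and Cish, and Stat5b is the 1 gene called lower.

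The question the design puts to these genes is whether the knockdown of Dab2 changed their response to LPS. It was larger in shDab2 cells for Cish, Stat2, Socs1 and Socs3, 4 of the 9 genes, where 5.80% of all genes were called (2.72% higher and 3.08% lower), or 1055 of the 9505 genes with a mean of at least 50. Since the 9 genes were chosen with earlier results known, this count does not test an excess. The difference between the LPS effects of the lines was 1.68 for Cish on the log2 scale (95% confidence interval 1.37 to 1.98, adjusted p = 5.3e-05), and 42 genes had a larger one. It was 0.93 for Stat2 (0.67 to 1.19, adjusted p = 0.00098), 0.70 for Socs1 (0.46 to 0.94, adjusted p = 0.0038) and 0.69 for Socs3 (0.47 to 0.92, adjusted p = 0.0029). Each of these 4 differences kept its direction and its call under all 17 alternative settings tried. Settings that changed only the variance, the block, the probes tested or the averaging of a gene's probes left the estimates as they were. They could change the call but not the direction. The other 5 genes were not called. For Socs2 the difference was 0.43 with an interval from -0.02 to 0.89, which leaves room for a difference as large as that of Socs1, while for Stat5b it was 0.00233 (-0.29 to 0.30) and for Stat6 -0.02 (-0.28 to 0.24).

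Compared at the same treatment, the lines differed mainly after LPS. The comparisons share their groups with those above, so they give the same arrays seen from another side. With LPS, 5 of the 9 genes were higher in shDab2 cells and none was lower, where 20.7% of all genes were called (9.07% higher and 11.6% lower), or 3641 of the 9505 brighter genes. Cish was 3.39-fold higher (log2 fold change 1.66, SE 0.0981, adjusted p = 1.1e-06), and 49 genes differed more in that direction. Stat2 was 1.64-fold higher (0.68, SE 0.0827, adjusted p = 0.00018), Socs1 1.44-fold (0.44, SE 0.077, adjusted p = 0.0022) and Socs3 1.3-fold (0.37, SE 0.0728, adjusted p = 0.0043). Socs2 was at least 1.25-fold higher (0.53, SE 0.145, adjusted p = 0.026), a call that was lost without replicate 1 of shLuc LPS (0.30, adjusted p = 0.2) or without replicate 2 of shDab2 LPS (0.45, adjusted p = 0.14).

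With PBS, 1 of the 9 genes was called and it was lower in shDab2 cells, where 12.1% of all genes were called (5.65% higher and 6.40% lower). Socs3 was 1.43-fold lower (log2 fold change -0.32, SE 0.0728, adjusted p = 0.017). This call was lost with the arrays scaled to the 75th percentile (-0.27, adjusted p = 0.051), without normalization (-0.08, adjusted p = 0.52), and without replicate 2 of shLuc PBS (-0.22, adjusted p = 0.13), replicate 1 of shDab2 PBS (-0.33, adjusted p = 0.066) or replicate 2 of shDab2 PBS (-0.31, adjusted p = 0.096). Socs1 (-0.26, adjusted p = 0.057) and Stat2 (-0.25, adjusted p = 0.09) had values in the same direction that did not pass, and their arrays did not overlap between the lines. For Cish, which differed most under LPS, the value with PBS was -0.01 with a 95% confidence interval of -0.23 to 0.20.

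**Figure D4:**
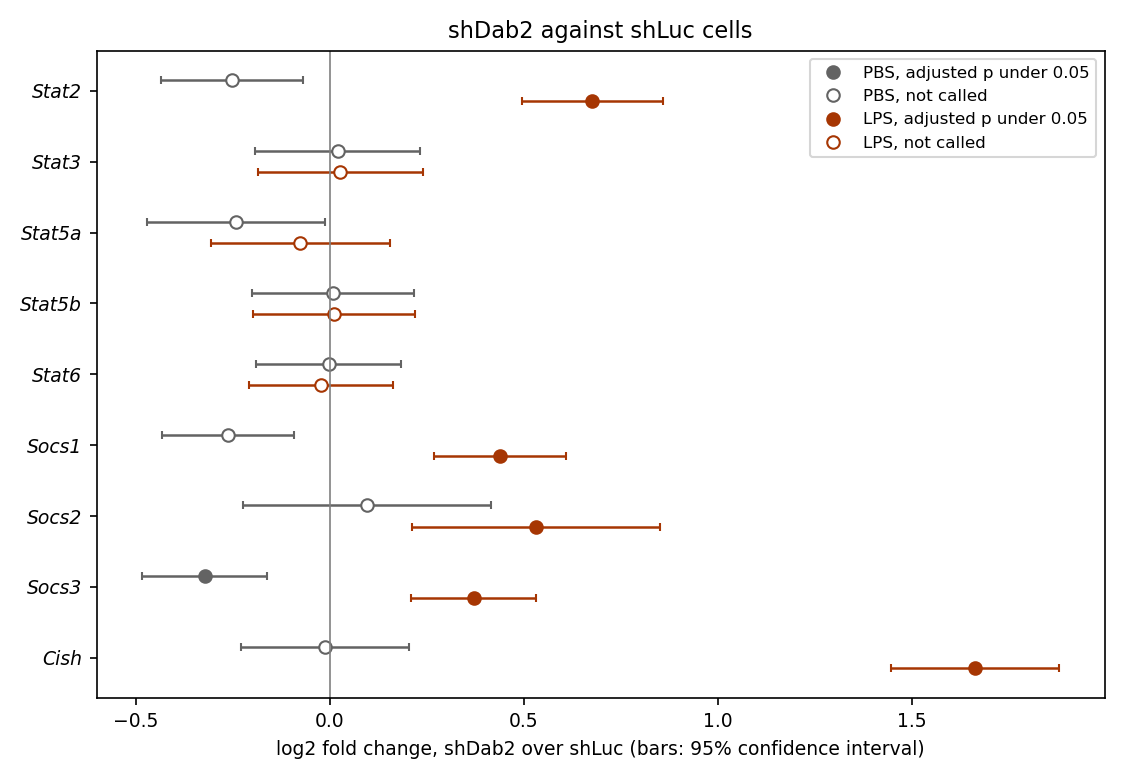
Log2 fold change of shDab2 over shLuc cells, on the log2(intensity + 50) scale, with PBS (grey) and with LPS (brown); points are limma estimates from 2 arrays a group, bars are 95% confidence intervals, and filled points had an adjusted p under 0.05. Socs3 lies below 0 with PBS and above 0 with LPS, and Cish has the highest value under LPS, 1.66.

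The order of the 4 groups was the same for Stat2, Socs1, Socs3 and Cish, from shDab2 PBS through shLuc PBS and shLuc LPS to shDab2 LPS. The lowest and next groups differed for Socs3 alone, and both higher steps differed for all 4. For Stat5b only the middle step, between shDab2 LPS and shLuc PBS, passed (log2 difference 0.29, adjusted p = 0.042). For Stat3, Stat5a and Stat6 no neighbouring groups differed beyond their spread, and for Socs2 only the step from shLuc LPS to shDab2 LPS did.

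The genes most like a member over the 8 arrays were sought among 2091 genes with a range of at least 1 on the log2 scale. Socs3 was closest to Maff, a small bZIP transcription factor (Pearson r = 0.9988), to the cytokine gene Tnf (0.9987) and to the cystine transporter gene Slc7a11 (0.9986). Cish was closest to Hdc, which makes histamine (0.9995), to the phospholipase gene Pla1a (0.9994) and to Marcks, a protein kinase C substrate (0.9982). Stat2 was closest to Ptgs2os (0.9984), to Dhx58, a regulator of the RNA sensor RIG-I (0.9959), and to Tent5a (0.9956). The 8 arrays fall into 4 groups, so these values describe a shared order of group means and are given with no test.

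Of 25 measured ligands that signal through STATs, 8 of them under 50 on every array, 13 rose in shLuc and 12 in shDab2 cells and none fell, with medians of 0.43 and 0.41 on the log2 scale, beside 11.6% and 13.4% of all genes called higher and medians near 0. Of the 9505 genes with a mean of at least 50, 2041 and 2337 were called higher. The response of 8 ligands was larger in shDab2 cells, beside 2.72% of all genes and 485 of the 9505. The lists of pathway genes, here and below, were chosen with earlier results of these data known. Their counts therefore describe the lists and do not test an excess. The largest rise was that of Csf3, which encodes G-CSF, a STAT3-activating cytokine (7.36 in shLuc and 7.8 in shDab2 cells), followed by Csf2, which encodes GM-CSF, an activator of STAT5 (4.83 and 6.47). Ifnb1, the type I interferon that signals through STAT2, read 43.5 and 37.9 in shLuc PBS, 541 and 520.1 in shLuc LPS, 12 and 16.2 in shDab2 PBS, and 2499 and 2432 in shDab2 LPS. It rose in both lines (2.68 and 5.29), and the difference in response was 2.62 (adjusted p = 2.5e-07). Il6, an activator of STAT3, read 49.8 and 48.6 in shLuc LPS and 1148 and 1307 in shDab2 LPS, and its difference in response was 3.61 (adjusted p = 2.5e-07). The ligands of STAT6, Il4 and Il13, read under 50 on every array and were not called, and Il10 was not called either (0.08 and 0.25). Interferon-gamma, Ifng, gave 0.18 and 0.00201, neither called.

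Of 25 measured receptors, 11 of them under 50 on every array, LPS raised 4 and lowered 4 in shLuc cells, and raised 6 and lowered 3 in shDab2 cells, with medians of 0.0027 and -0.000128. These 8 and 9 calls stand beside the 27.2% and 31.5% of all genes called. Il10ra, the ligand-binding chain of the IL-10 receptor, rose with LPS (1.69 and 2.01), as did Csf2ra of the GM-CSF receptor (0.78 and 0.90). Il6ra, the IL-6 receptor, fell (-1.12 and -1.31), as did Lifr, the receptor of LIF (-0.98 and -0.96). The difference in response was called for 4 receptors, beside 5.80% of all genes. It was above 0 for Il7r (0.63), Csf2rb (0.61) and Il15ra (0.48), calls that held in 4, 3 and 8 of 14 alternatives. It was below 0 for Ifngr1. Ifngr1, a chain of the interferon-gamma receptor, fell more in shDab2 cells (-0.26 and -0.88, difference -0.62, adjusted p = 0.0072), and its call in shLuc cells was lost without replicate 1 of shLuc PBS or of shLuc LPS (range over 14 alternatives -0.51 to -0.19). Il13ra1, a receptor chain for IL-4 and IL-13, was 0.99 higher in shDab2 cells with PBS and 0.67 higher with LPS.

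Of the 4 Janus kinases, Jak2, which serves the receptors of GM-CSF and interferon-gamma, was the 1 that rose in both lines. It read 279 and 242 in shLuc PBS, 562 and 597 in shLuc LPS, 342 and 324 in shDab2 PBS, and 1422 and 1436 in shDab2 LPS, with no overlap between groups. The log2 fold change with LPS was 1.02 in the control line (adjusted p = 1.3e-06) and 1.95 in shDab2 cells (adjusted p = 3.6e-09), and the difference was 0.93 (adjusted p = 0.00039). Jak1 rose in shDab2 cells (0.33, adjusted p = 0.011) with 0.01 in shLuc cells. That call was lost without normalization, without replicate 1 of shDab2 PBS or without replicate 2 of shDab2 LPS, and the value ran from 0.11 to 0.58 over 14 alternatives. Jak3 was higher in shDab2 than in shLuc cells with LPS (0.67, adjusted p = 0.0018) at levels of 51.6 and below, and Tyk2, which pairs with the interferon receptor, was not called in any comparison.

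Among the other SOCS genes, Socs5 read 3.5 and below on every array, and a change of it was not measurable with its probe. Socs4 (0.39 in shLuc and 0.43 in shDab2 cells) and Socs7 (0.34 and 0.34) rose with LPS, Socs5 and Socs6 were not called, and none of the 4 differed between the lines in either treatment. Without normalization all 4 of these calls were lost and the value of Socs7 in shDab2 cells was -0.08, and calls were lost as well without replicate 1 of shLuc PBS (Socs4), or without replicate 2 of shLuc PBS, of shLuc LPS or of shDab2 PBS or replicate 1 of shDab2 LPS (both genes, in the line of that array). Over 14 alternatives Socs4 ran from 0.19 to 0.46 in shLuc and from 0.07 to 0.59 in shDab2 cells, and Socs7 from 0.09 to 0.46 and from -0.08 to 0.43. Of 9 other measured inhibitors of the pathway, LPS raised 3 and lowered 1 in the control line and raised 4 and lowered 1 in the knockdown line, where 27.2% and 31.5% of all genes, and 4752 and 5509 of the 9505 brighter genes, were called. Usp18, a protease that dampens the type I interferon receptor, rose 0.51 and 1.48, with a difference in response of 0.97 (adjusted p = 6.3e-05), the 1 such call of the list. The tyrosine phosphatase gene Ptpn1 fell in both lines (-0.35 and -0.37). Stat4, the other STAT gene measured, was not called in any comparison.

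Genes that STATs are known to act with or to induce were counted by factor. Of 10 measured partners and targets of STAT2, 9 rose in shLuc and 10 in shDab2 cells (medians 1.1 and 2.4), beside 2041 and 2337 of the 9505 brighter genes. In shDab2 cells 8 responded more, beside 485 of the 9505, and with PBS 5 were lower and none was higher, beside 1155 and 1023. The largest rises were those of Rsad2, an antiviral enzyme (2.17 and 4.27), and Ifit1, which binds viral RNA (1.69 and 3.78). Irf9, the DNA-binding partner of STAT2, rose 0.46 and 0.79, with a difference of 0.33 that did not pass (adjusted p = 0.052). The 10 genes share Usp18 with the inhibitors above.

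Of 15 STAT3 targets, 1 of them under 50 on every array, 12 rose in each line. Called higher were 11.6% and 13.4% of all genes, and 2041 and 2337 of the 9505 brighter genes. The difference was called above 0 for 6, beside 2.72% of all genes and 485 of the 9505. It was called below 0 for 1, beside 3.08% and 570. Timp1, an inhibitor of matrix proteases, had the largest such difference (1.97 and 4.2, difference 2.23, adjusted p = 1.1e-06), and Ccnd1, the cell cycle gene for cyclin D1, fell in shDab2 cells (-0.69) with -0.00767 in shLuc cells. Many of these genes also respond to other LPS-activated factors. Of 7 STAT5 targets, 1 of them under 50 on every array, 5 rose in shLuc and 7 in shDab2 cells. In shDab2 cells 2 responded more, the kinase gene Pim1 (2.65 and 3.47) and the cytokine gene Osm (2.39 and 3.26). The shares of all genes and of brighter genes given for the STAT3 targets stand beside these counts as well. Pim1 is also counted among the STAT3 targets and Osm among the ligands. Of 11 STAT6 targets, 8 read under 50 on every array, and 1 rose and 1 fell in the control line and 2 rose and 1 fell in the knockdown line, beside 27.2% and 31.5% of all genes called. Ccl22, a chemokine gene, rose in both lines (0.51 and 2.3) and Ccl24 in shDab2 cells (1.05), while the transcription factor gene Klf4 fell in both lines (-1.07 in shDab2 cells). The difference in response was called above 0 for 2 of the 11, beside 2.72% of all genes, and below 0 for none. The 2 were Ccl22 (1.78, limma adjusted p = 6.5e-05) and Ccl24 (1.11, adjusted p = 0.00075). The call of Ccl22 in shLuc cells was lost without replicate 1 of shLuc PBS, and its value ran from 0.41 to 0.92 over 14 alternatives.

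**Figure D5:**
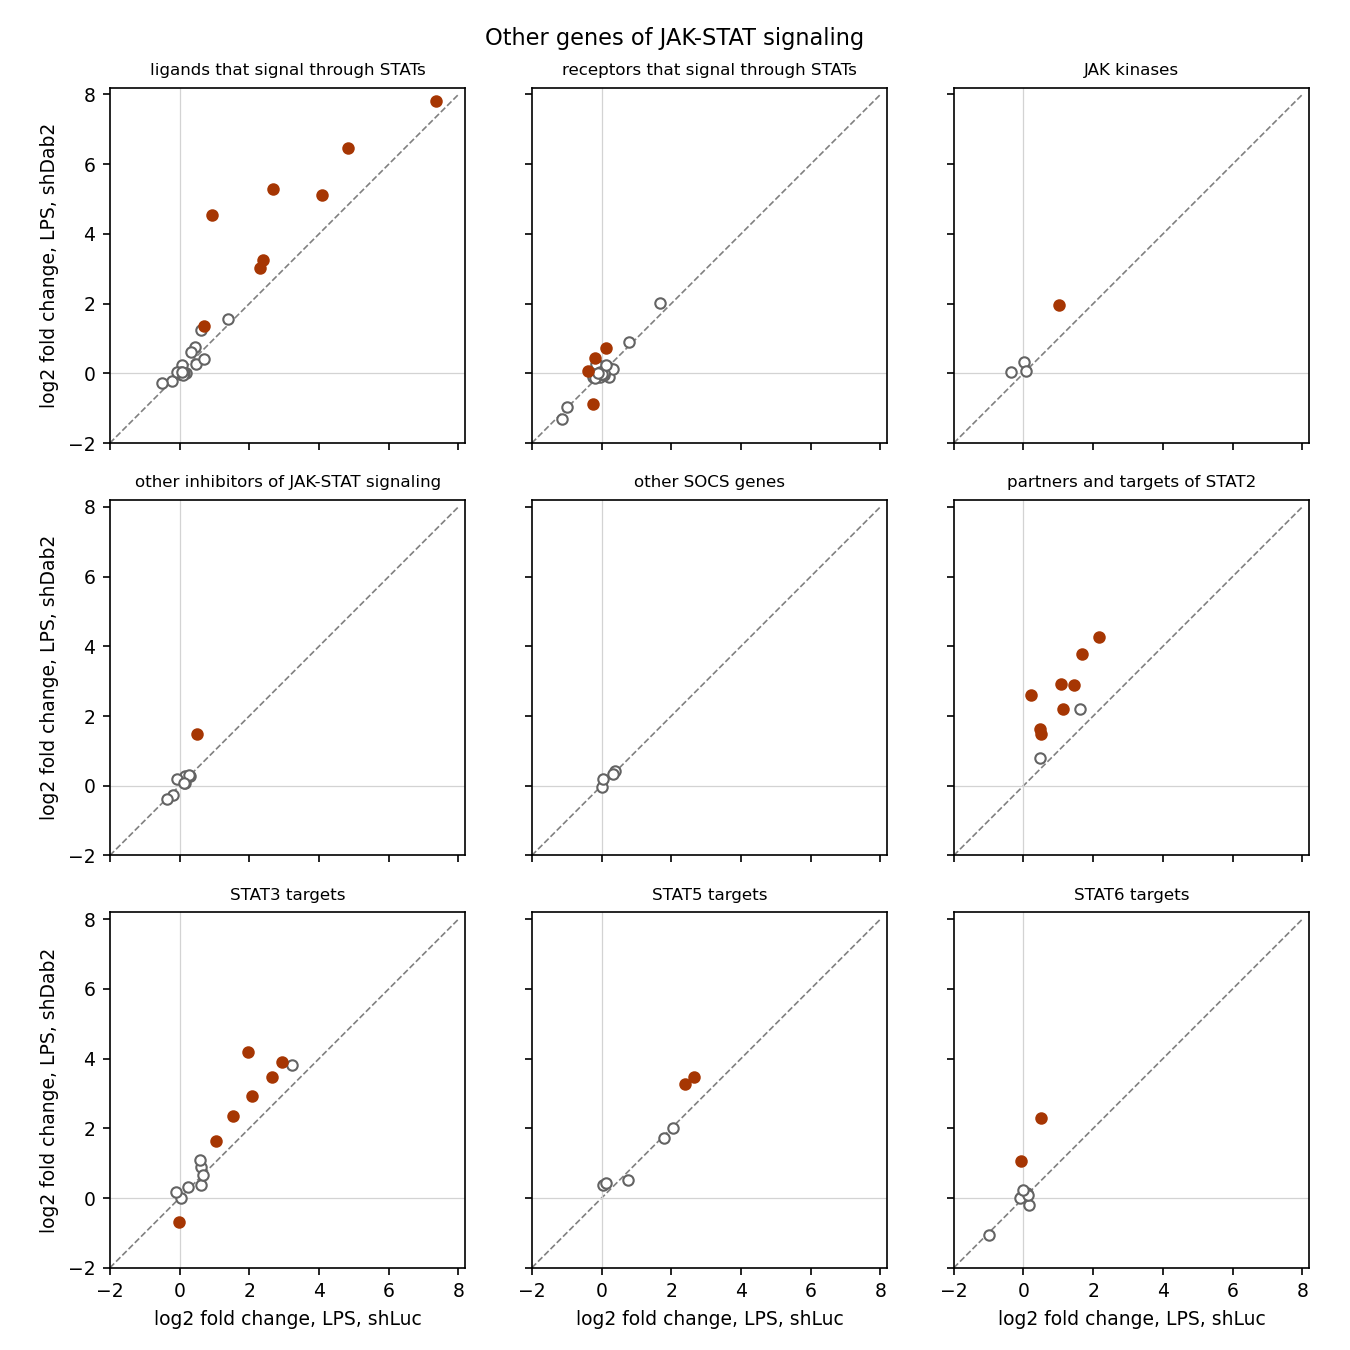
Log2 fold change with LPS in shLuc cells (x axis) against that in shDab2 cells (y axis), on the log2(intensity + 50) scale, for 9 lists of other genes of JAK-STAT signaling; each point is a gene, filled points had a difference in response with an adjusted p under 0.05, and the dashed line marks equal responses. Filled points lie above the line for 8 ligands, 8 partners and targets of STAT2, 6 STAT3 targets and 3 receptors. They also do so for 2 STAT5 targets, 2 STAT6 targets, 1 other inhibitor and Jak2. Ifngr1 and Ccnd1 are filled points below the line.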

How the data were processed

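Total RNA of 8 samples was hybridised to Phalanx mouse OneArray v2 chips. The deposited values are linear intensity per probe with the background subtracted. How the authors corrected and scaled them is not given in the sources used here, and they were not at a common level between arrays. A deposited table of group mean intensity was used only to check the arrays. Of 26423 probes, 21876 carry 1 symbol and 4547 none, and the brightest probe stood for a gene. Intensities were quantile-normalized, 50 was added, and log2 values were fitted in limma 3.58.1 (R 4.3.3) with 1 mean per group, a variance trend, 4 residual degrees of freedom and Benjamini-Hochberg adjustment, 5 comparisons, with 2 more between the diagonal groups for the order of levels. The fit was tested on simulated arrays with few changed probes and independent noise. Far more genes were called with LPS in the real arrays, so that test does not vouch for the calls given here. The variance of each probe was drawn toward the trend over all probes, with 6.7 prior degrees of freedom. Standard errors and intervals therefore rest on the spread of other probes as well. With 2 arrays a group, their number sets the precision. The 9 genes and the lists were chosen with earlier results of these data known. From each list the genes with the largest called changes, and those needed to describe its count, were named. Alternatives were 75th percentile scaling, no normalization, an offset of 16, a floor of 50, a filter on dim probes, no variance trend, a robust variance, a replicate block, the mean of a gene's probes, and leaving out each array.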

Additional observations from a re-analysis of the deposited data

Results flagged for a closer look

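The response to LPS differed between shDab2 and shLuc cells for 4 genes by a test of the difference itself (limma, adjusted over 26423 probes). The log2 fold change in shDab2 cells minus that in shLuc cells was 0.929 for Stat2 (SE 0.117), 0.701 for Socs1 (SE 0.109), 0.694 for Socs3 (SE 0.103) and 1.68 for Cish (SE 0.139). In each of the 4 genes both shDab2 LPS arrays lay above both shLuc LPS arrays. For Socs1, Socs3 and Stat2 the shDab2 PBS arrays also lay below the shLuc PBS arrays, and for Cish they overlapped. The test was made on these same arrays, so their order adds no support to it. How many of all genes were separated in this way was not counted.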

How the results depend on the processing

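The LPS effects in both lines, the shDab2 against shLuc effect under LPS and the difference in response kept direction and call for Stat2, Socs1, Socs3 and Cish under all 17 alternatives. The direction could not change with the dim-probe filter, the variance settings, the replicate block or the mean of a gene's probes, since each member has 1 probe. Counts of called members stayed within 1.5 times in all comparisons but shDab2 against shLuc with PBS. There the count was 1 in the analysis reported, 0 with 75th percentile scaling, 2 with an offset of 16, with dim probes left out (8 members tested), with no variance trend, with a robust variance and with the mean of a gene's probes, 3 with a floor of 50, 1 without normalization (Stat6, higher, in place of Socs3), and 0 to 1 when single arrays were left out. The other added calls were Socs1 (adjusted p = 0.01 to 0.042) and, with the floor, Stat2 (0.043). The floor dropped probes at or below it on more than 2 arrays, Stat3 and Socs2 among them.

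Over all members, 40 values turned sign, all of them not called in the analysis reported. Without normalization, which moved the median of all probes by 0.112 with PBS, this gave for LPS in shLuc cells Stat6 -0.151, for LPS in shDab2 cells Stat5a -0.123 and Stat6 -0.324, for the lines with PBS Stat2 0.0405, Stat6 0.261 and Cish 0.238, for the lines with LPS Stat5a 0.0287 and Stat6 0.0872, and for the difference Stat3 -0.056 and Stat5b -0.148. Of these, Stat6 passed in shDab2 cells (adjusted p = 0.01) and between the lines with PBS (0.043). With 75th percentile scaling it gave Stat6 0.0261 and Cish 0.0468 with PBS, Stat6 0.00363 with LPS and, for the difference, Stat5b -0.00435. Leaving out single arrays gave ranges of -0.00613 to 0.0833 for Stat6 with LPS in shLuc cells and -0.0354 to 0.0756 in shDab2 cells. Between the lines with PBS they were -0.0313 to 0.0681 for Stat3, -0.0169 to 0.033 for Stat5b, -0.0586 to 0.0521 for Stat6 and -0.148 to 0.125 for Cish. Between the lines with LPS they were -0.0695 to 0.124 for Stat3, -0.16 to 0.00364 for Stat5a, -0.0449 to 0.0667 for Stat5b and -0.0721 to 0.0271 for Stat6. For the difference they were -0.0895 to 0.103 for Stat3, -0.0534 to 0.0589 for Stat5b and -0.0737 to 0.0362 for Stat6. The causes were not tested. Counts over the pathway lists also moved by over 1.5 times. Over 14 alternatives the other inhibitors that rose with LPS were 1 to 4 in shLuc and 1 to 6 in shDab2 cells, the receptors that rose 2 to 5 and 3 to 6, the other SOCS genes 0 to 2 in both, the receptors with a larger response in shDab2 cells 0 to 3, and the ligands higher in shDab2 cells with PBS 1 to 10.

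The samples share replicate numbers, but these did not pair them (correlations of same-numbered deviations from -0.0597 to 0.106). With the replicate block, 4 members were called for LPS in shLuc cells, 5 in shDab2 cells, 1 between the lines with PBS, 5 with LPS and 4 for the difference, and the calls lost were those of Stat5b (adjusted p = 0.059 and 0.054).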
